A study of Triticum aestivum with 6 samples.

Results

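The subject is the difference between aleurone and starchy endosperm in wheat grain at 6 days post anthesis (DPA). It was read from 2 of the 6 libraries of the series, the aleurone library and the starchy endosperm library of that stage, chosen by their titles. All libraries came from bread wheat, Triticum aestivum, of the cultivar Banks, with no treatment named in the labels, and the other 4 held the same tissues at 9 and 14 DPA. Each tissue preparation was a pool, with no fewer than 5 seeds taken over 3 spikes and 3 plants, and was microdissected on ice. There was 1 pool per tissue and stage, so no difference here has a replicate check and no p-value is given.

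The endosperm of a cereal grain begins as a single lineage that divides into tissues with unlike fates. The aleurone is its outer layer. Its cells stay alive in the ripe grain, store oil, protein bodies and minerals, and secrete starch-degrading and protein-degrading enzymes at germination. The starchy endosperm lies inside it, fills with starch and storage proteins such as glutenins and gliadins, and dies before the grain is ripe. The earliest stage sampled here comes before the main phase of storage product deposition.

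The 6 DPA libraries were close in depth, with 27150859 reads in aleurone and 30581013 in starchy endosperm. Reads were counted by the authors on 221925 transcript sequences, and the total count per sequence is used unless unique reads are named. Of these sequences, 117655 had reads in both tissues, 17930 in aleurone alone, 16035 in starchy endosperm alone and 70305 in neither. The files do not pair their identifiers with gene names, and 0 identifiers matched the reference gene table. The marker genes drawn up for the tissues were not found among the identifiers, so the tissue names were not checked and are those of the labels, and only 2 identifiers per direction are named. A gene may be represented by several sequences, so the counts below are of sequences and not of genes. In pooled tissue, fewer cells of a type and less RNA per cell cannot be told apart.

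At 6 DPA the tissues already differed widely. A sequence was considered where the higher library gave it 50 reads or more, and the 56786 that met this carried 97.2% of the aleurone reads and 97.7% of the starchy endosperm reads. Levels were expressed as scaled RPM, which are reads divided by a library total adjusted by TMM and given per 1e6, a scaling that centres the bulk of sequences on equal levels. At least 4-fold differences were found for 8517 sequences higher in aleurone, 15.0% of those considered, and for 6797 higher in starchy endosperm, 12.0% of those considered. Together they made up 27.0%. By contrast, 26536 sequences (46.7%) lay within 2-fold. Counts under 3 reads were set at 3 for these ratios, since 3 reads is the limit that a count of 0 allows.

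TMM places the middle of the distribution near 0, and the median log2 ratio of aleurone to starchy endosperm was 0.04, with quartiles of -1.01 and 1.18. Scaling by library totals in place of TMM moved every log2 ratio at 6 DPA up by 0.20. The tails were long on both sides, with a 5th percentile of -3.95 and a 95th of 4.37. Differences of at least 16-fold numbered 3498 in favour of aleurone and 2795 in favour of starchy endosperm. At 64-fold the numbers were 1117 and 952, and at 256-fold 258 and 139. Only 11 sequences were at least 1024-fold higher in aleurone, and 3 were so in starchy endosperm. The ratio that can be resolved is capped by the reads of the higher library, so these last counts rest on abundant sequences.

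**Figure D1:**
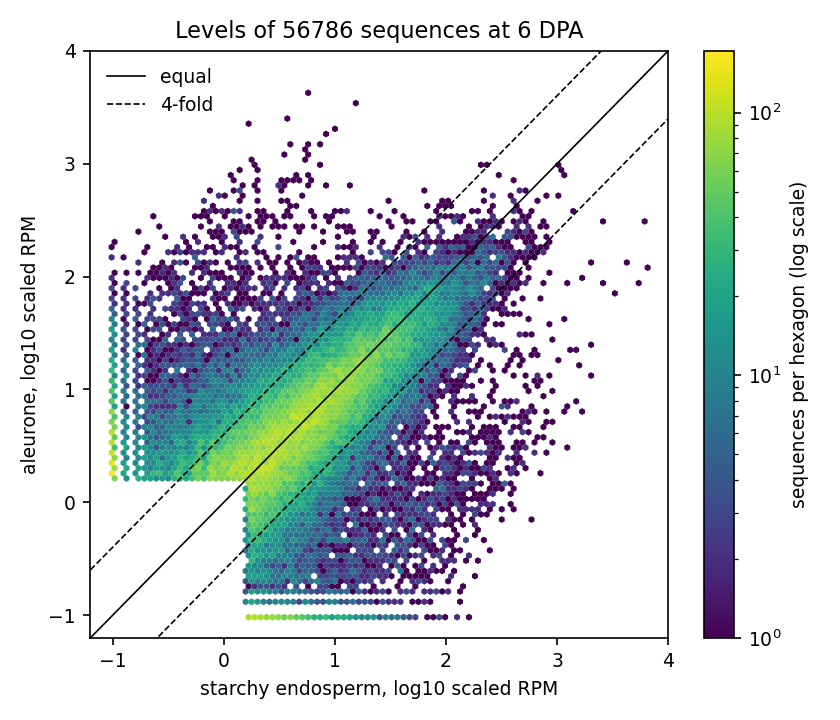
Levels in aleurone (vertical axis) and starchy endosperm (horizontal axis) at 6 DPA, in log10 scaled RPM, for the 56786 sequences considered; colour gives the number of sequences per hexagon, and levels under 3 reads are drawn at 3 reads. The densest band follows the line of equal levels, while most of the top 100 sequences of each tissue lie outside the dashed 4-fold lines; the empty corner is the filter of 50 reads.

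Counting error was small against most of these ratios. An exact 95% interval was computed for each ratio from the reads of the 2 libraries, and it covers counting error only. It lay wholly beyond 4-fold for 6328 of the 8517 sequences higher in aleurone and for 5001 of the 6797 higher in starchy endosperm. The interval lay wholly beyond 2-fold for all 8517 and all 6797. The read minimum and the 4-fold rule together already require this, so it says nothing further about counting error. The interval lay wholly within 2-fold for 18741 sequences, 33.0% of those considered, whose levels were thus close in these libraries. PCR copies were not told apart, and the spread between pools of seeds is not part of the interval.

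Few of the differing sequences were missing altogether from the other tissue. Of the 8517 higher in aleurone, 538 (6.32%) had no reads in starchy endosperm and 1023 (12.0%) had 1 to 3. Of the 6797 higher in starchy endosperm, 332 (4.88%) had no reads in aleurone and 688 (10.1%) had 1 to 3. The median member of the aleurone set stood at 7.12 scaled RPM in aleurone and 0.522 in starchy endosperm. The median member of the starchy endosperm set stood at 0.641 scaled RPM in aleurone and 8.55 in starchy endosperm. Most of the differing sequences were therefore measured above 3 reads in both tissues.

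In reads, the differing sequences weighed about as much in either tissue. The 8517 sequences higher in aleurone held 27.7% of the aleurone reads and 1.54% of the starchy endosperm reads. The 6797 higher in starchy endosperm held 2.48% of the aleurone reads and 30.3% of the starchy endosperm reads. Those at least 16-fold apart accounted for 17.8% of the aleurone reads on the aleurone side and for 19.3% of the starchy endosperm reads on the other. Sequences within 2-fold held 44.6% of the aleurone reads and 41.1% of the starchy endosperm reads. The weight within each set was uneven: 378 sequences carried 50% of the aleurone set's reads in aleurone, and 267 carried 50% of the starchy endosperm set's reads in starchy endosperm.

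**Figure D2:**
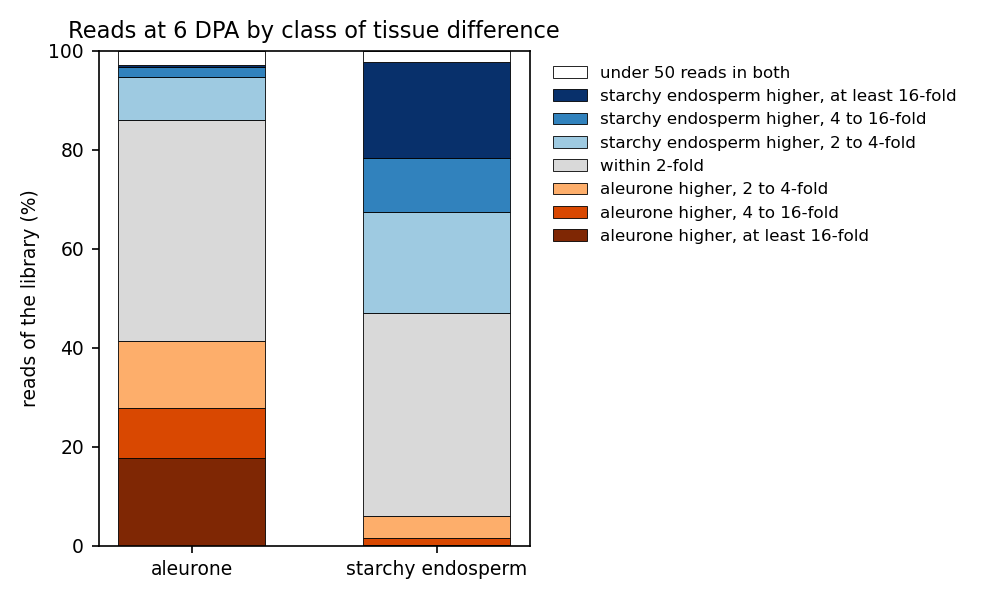
Share of the reads of each 6 DPA library (vertical axis, percent) held by sequences of each class of tissue difference, aleurone on the left and starchy endosperm on the right. Sequences within 2-fold held 44.6% of the aleurone reads and 41.1% of the starchy endosperm reads, and each library gave a similar share to its own sequences at least 16-fold higher, 17.8% and 19.3%.

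The most abundant sequences of the 2 tissues were largely different ones. By the authors' RPKM, reads per base of sequence scaled to the depth of the library, the 10 most abundant sequences of aleurone and the 10 of starchy endosperm had 0 in common. Of the 100 most abundant, 6 were shared, 6.00% of each list, and of the 1000 most abundant 312, or 31.2% of each list. Among the top 100 of aleurone, 78 were at least 4-fold higher in aleurone and 14 lay within 2-fold. Among the top 100 of starchy endosperm, 87 were at least 4-fold higher there and 3 lay within 2-fold. The lists were drawn from the same 2 libraries as the ratios, so this describes the libraries and is no separate evidence of a difference.

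The share of differing sequences grew with abundance from 30 RPKM upward, and from 100 to 1000 RPKM it was larger on the starchy endosperm side. Of 14621 sequences with a mean of 10 to 30 RPKM over both libraries, 12.7% favoured aleurone by 4-fold or more and 9.66% favoured starchy endosperm. At 100 to 300 RPKM (1571 sequences) the shares were 16.2% and 21.2%. At 300 to 1000 RPKM (289 sequences) they were 19.7% (exact 95% interval 15.3 to 24.8) and 35.3% (29.8 to 41.1). Of the 30 sequences at 1000 RPKM or more, 11 belonged to the aleurone side (36.7%, interval 19.9 to 56.1) and 16 to that of starchy endosperm (53.3%, interval 34.3 to 71.7). Both are shares of the same few sequences, and the difference between them was not tested. The median absolute log2 ratio was 0.93 at 10 to 30 RPKM and 6.15 at 1000 RPKM or more. Below 3 RPKM the shares were higher again, at 20.7% and 16.1%, but there the filter of 50 reads in the higher library passed sequences because they differed.

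**Figure D3:**
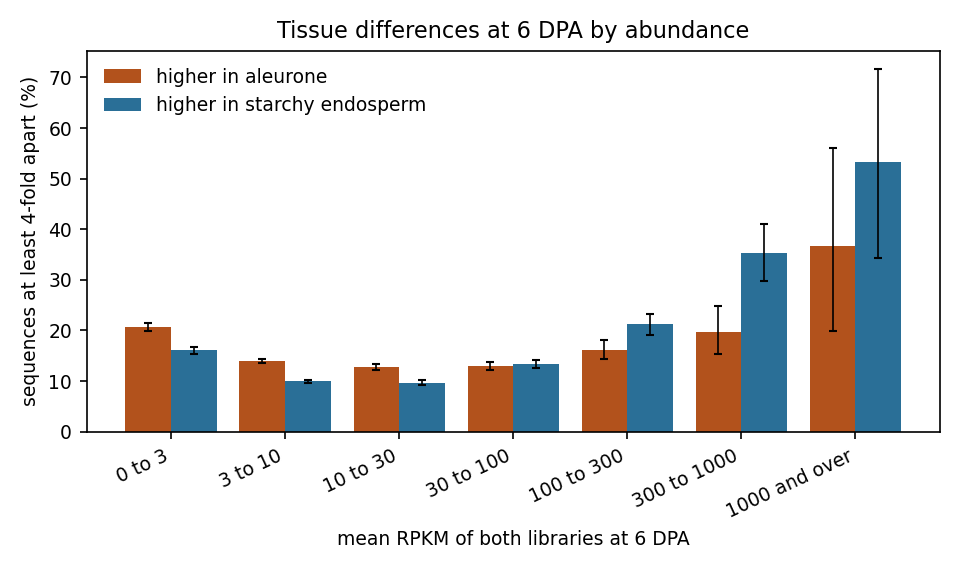
Percent of the sequences considered that favoured aleurone or starchy endosperm by 4-fold or more at 6 DPA (vertical axis), by the mean of the deposited RPKM of both libraries (horizontal axis); bars carry exact 95% binomial intervals over sequences. From 30 RPKM upward both shares grew, to 11 and 16 of the 30 sequences at 1000 RPKM or more.

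Abundant transcripts common to the tissues existed alongside these. There were 1750 sequences of at least 100 RPKM in aleurone and 2042 in starchy endosperm, of which 718 passed that level in both. Of the 718, 495 lay within 2-fold. They held 8.31% of the aleurone reads and 8.50% of the starchy endosperm reads.

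Among the few most abundant sequences, the level left in the other tissue was lower on the aleurone side. The 10 most abundant aleurone sequences had 2111 to 6413 RPKM in aleurone and 4.17 to 20.1 RPKM in starchy endosperm, with a median of 8.62 there. The 10 most abundant starchy endosperm sequences had 34.2 to 407 RPKM in aleurone, with a median of 196, and 2410 to 11160 RPKM in starchy endosperm. Their log2 ratios of aleurone to starchy endosperm ran from 7.57 to 9.53 in the aleurone list and from -6.67 to -3.94 in the starchy endosperm list, so the 2 lists did not overlap in the size of the difference. In longer lists the sizes overlapped. Over the top 100 the ratios ran from -1.89 to 10.58 and from -9.63 to -0.02, with medians of 7.64 and -6.15, and over the top 1000 the medians were 1.40 and -1.96. The difference between the lists was not tested, and these ratios are on total reads. The 9.53 of the aleurone list was that of TC427907, described below. On unique reads its ratio was lower, at 153.5-fold (interval 42.1 to 1273).

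The level left in the other tissue was also read from sequences with many reads. Among 492 sequences with at least 5000 reads in aleurone, the lowest starchy endosperm level was 0.0158% of the aleurone level, from 6463 reads in aleurone and 1 in starchy endosperm (exact 95% interval 3.99e-04% to 0.0878%). Among 825 sequences with at least 5000 reads in starchy endosperm, the lowest aleurone level was 0.127% of the starchy endosperm level, from 23 reads in aleurone and 17854 in starchy endosperm (interval 0.0802% to 0.190%). Sequences just under that number of reads can lie lower, as TC455006 below does with 3 reads in aleurone and 4848 in starchy endosperm. Each lowest value was picked by the same counts, and its interval does not allow for that choice. Under 1% were 150 of the 492 and 129 of the 825. No sequence of either group (0) was without reads in the other tissue. Carry-over of tissue or of reads between libraries was not tested beyond these lowest values.

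Single sequences are given for the largest ratio and the largest difference in scaled RPM in each direction, among sequences at least 4-fold apart on unique reads also. TC383973 (715 bases) had, at 6 DPA, 6463 reads in aleurone and 1 in starchy endosperm, a ratio of 6348 with an exact 95% interval of 1139 to 250800. The ratios of named sequences on total reads use the counts as they stand, without the setting at 3. On unique reads it had 1286 in aleurone and 0 in starchy endosperm, at least 436-fold higher in aleurone with the 0 set at 3 reads. Across 6, 9 and 14 DPA its deposited RPKM in aleurone was 332.9, 151.9 and 0.074, and in starchy endosperm it was 0.046 at 6 DPA with no reads later. Nearly all its reads at 6 and 9 DPA were in the aleurone libraries, while the 14 DPA aleurone library held 2 reads.

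TC427907 (759 bases) was the most abundant sequence of the 6 DPA aleurone library by RPKM. It had 132162 reads in aleurone and 176 in starchy endosperm, a ratio of 738 (interval 636.3 to 860). Across 6, 9 and 14 DPA its RPKM was 6413, 6443 and 25.2 in aleurone and 7.58, 3.21 and 0.176 in starchy endosperm. Aleurone was higher at each stage, and the level there was far lower at 14 DPA than at 6 or 9 DPA. Only 302 of its aleurone reads and 2 of its starchy endosperm reads at 6 DPA were unique, a ratio of 153.5 (interval 42.1 to 1273), so nearly all its reads also matched other sequences and its level is uncertain.

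In starchy endosperm, TC455006 (623 bases) had the largest ratio. It had 3 reads in aleurone and 4848 in starchy endosperm, and was 1645-fold higher in starchy endosperm (interval 562.6 to 7980). Its RPKM in aleurone was 0.177 and 1.41 at 6 and 9 DPA with no reads at 14 DPA, while across the same 3 stages it was 254.5, 68.0 and 1.33 in starchy endosperm. Nearly all its reads were unique, 3 of 3 in aleurone and 4774 of 4848 in starchy endosperm. Its level in starchy endosperm was lower at each later stage.

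TC401615 (586 bases) took 0.654% of the starchy endosperm reads and had the largest difference in level. It had 3815 reads in aleurone and 200011 in starchy endosperm, and was 53.4-fold higher in starchy endosperm (interval 51.7 to 55.1). Unique reads gave 51.9-fold (interval 50.2 to 53.7). Across 6, 9 and 14 DPA its RPKM was 239.8, 134.7 and 55.9 in aleurone and 11160, 9118 and 8635 in starchy endosperm. Unlike the other 3 named sequences, it stayed within 1.5 times of its 6 DPA RPKM in its own tissue at both later stages.

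**Figure D4:**
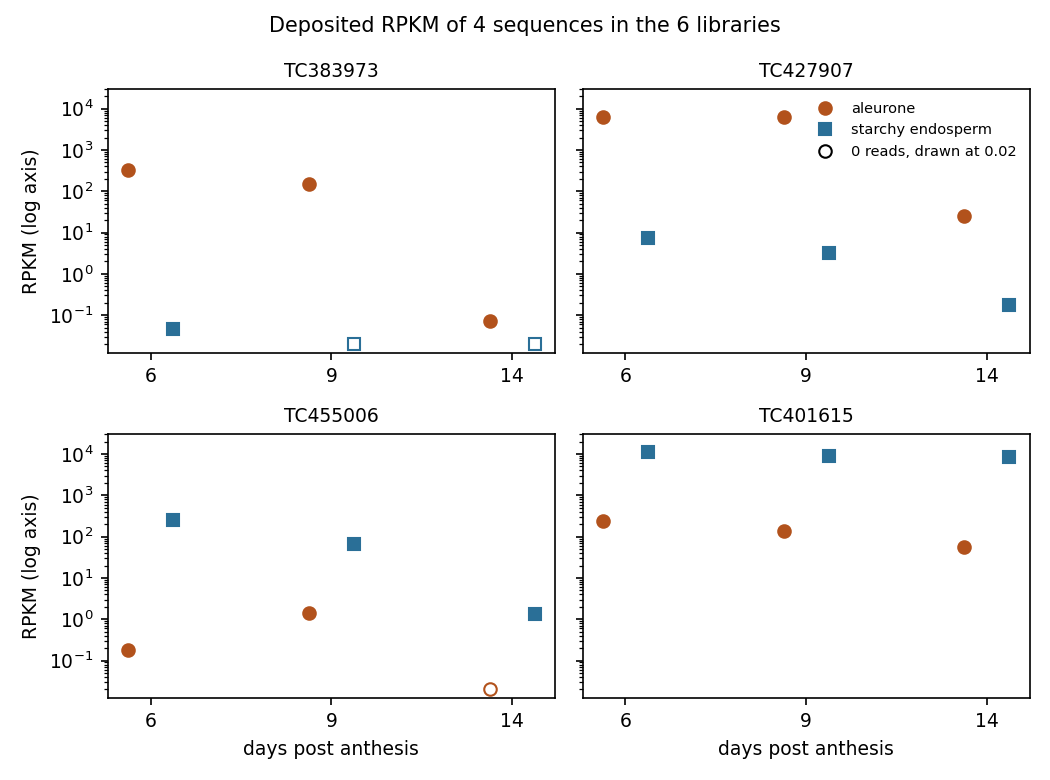
Deposited RPKM (log axis) of the 4 named sequences in the 6 libraries, by days post anthesis, with aleurone left of starchy endosperm at each stage; open symbols mark 0 reads, drawn at 0.02. The 2 sequences of the upper row favoured aleurone and the 2 of the lower row favoured starchy endosperm at every stage, except that TC383973 had too few reads at 14 DPA for a direction; only TC401615 kept its level to 14 DPA.

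Unique reads, as the file headers call them, gave nearly the same picture as total reads. Of the aleurone set, 6802 sequences had at least 50 unique reads in the higher library, and 6561 of these (96.5%) were also at least 4-fold higher in aleurone on unique reads. Of the starchy endosperm set, 5381 had that many and 5115 (95.1%) again favoured starchy endosperm by 4-fold or more. Among those with at least 50 unique reads, the direction was not kept for 1 sequence of the aleurone set and 0 of the starchy endosperm set. The check thus covered 6802 of the 8517 and 5381 of the 6797. The remaining members had too few unique reads and were not checked, among them 94 and 68 with no unique read in either library. Unique reads are part of the total reads, so this is a check of the counting and not a repeat of the experiment.

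The sets were close in their share of unique reads, at 54.0% for the aleurone set and 57.3% for the starchy endosperm set, against 52.3% over all sequences considered. The classes within them were less alike: at 16-fold or more the shares were 52.8% and 66.6%, and at 4-fold to 16-fold 55.8% and 43.0%. The median length was 769 bases in the aleurone set, 723 in the starchy endosperm set and 814 among sequences within 2-fold. Short sequences differed more often: under 400 bases, 18.9% of 2952 were at least 4-fold higher in aleurone and 16.6% in starchy endosperm, and from 1600 bases up 12.2% and 7.69% of 2927. Identifiers beginning with TC numbered 41849 of those considered, of which 14.4% were in the aleurone set and 11.4% in the starchy endosperm set. Among the 14937 others the shares were 16.7% and 13.6%. The part of length and of the kind of identifier in the differences was not tested.

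The 9 and 14 DPA libraries share no library with the 6 DPA pair, and so give a readout of the 6 DPA sets in other pools. A member was considered at a later stage where the higher library of that stage gave it 20 reads or more. At 9 DPA this left 5392 of the aleurone set, of which 4427 (82.1%, exact 95% interval 81.1 to 83.1 over sequences) were again at least 4-fold higher in aleurone. Over all 39388 sequences with that many reads at 9 DPA, 21.6% were. Of the starchy endosperm set, 3567 were considered and 2402 (67.3%, interval 65.8 to 68.9) again favoured starchy endosperm by 4-fold or more, against 15.1% over all sequences. The direction alone was kept by 97.3% of the considered members of the aleurone set and 91.7% of those of the starchy endosperm set. These shares leave out members under 20 reads in both 9 DPA libraries, 3125 of the aleurone set and 3230 of the starchy endosperm set. The 9 DPA libraries were shallow, with 4549034 reads in aleurone and 4104682 in starchy endosperm. Counted over the whole sets, 4427 of 8517 and 2402 of 6797 were again at least 4-fold apart.

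By 14 DPA the 6 DPA differences had thinned out. Of 6367 sequences of the aleurone set considered, 3029 (47.6%) were at least 4-fold higher in aleurone, against 17.6% of all 77466 sequences with at least 20 reads at 14 DPA. Of 5880 of the starchy endosperm set, 2027 (34.5%) favoured starchy endosperm by 4-fold or more, against 10.5%. The median log2 ratio of the considered members of the aleurone set was 3.36 at 9 DPA and 1.83 at 14 DPA, and that of the starchy endosperm set -3.00 and -0.91. The members considered were not the same at the 2 stages. In the aleurone set, those considered at 9 DPA had a median of 3.60 at 6 DPA, and those considered at 14 DPA 3.09. In the starchy endosperm set these 6 DPA medians were -3.47 and -3.23. Another 2150 of the aleurone set (25.2%) and 917 of the starchy endosperm set (13.5%) had under 20 reads in both 14 DPA libraries. Both libraries had larger read totals than those of 6 DPA, but after scaling only the aleurone one was deeper. A floor of 3 reads was 0.0752 scaled RPM in 14 DPA aleurone, against 0.0962 at 6 DPA. In starchy endosperm it was 0.123 at 14 DPA, against 0.0979 at 6 DPA. The part of depth in these low counts was not tested. Scaling by library totals moved all 14 DPA log2 ratios up by 0.69. With library totals at both stages, which also changed the membership of the 6 DPA sets, the shares were 55.9% of 7340 and 30.9% of 5093.

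Among the sequences considered at a later stage, the size of the 6 DPA difference went with how often it was seen again. Sequences 4-fold to 8-fold higher in aleurone at 6 DPA were at least 4-fold higher at 9 DPA in 63.8% of 2023 cases, those 16-fold to 32-fold higher in 93.9% of 726 and those at least 256-fold higher in 99.6% of 258. On the starchy endosperm side the same classes gave 40.1% of 1467, 83.6% of 434 and 99.2% of 127. At 14 DPA the lowest of these classes gave 31.6% of 2999 for aleurone and 16.1% of 2614 for starchy endosperm, and the highest 92.4% of 144 and 95.4% of 131. These shares leave out sequences under 20 reads in both libraries of the stage. In the highest class, 144 of 258 for aleurone and 131 of 139 for starchy endosperm were considered at 14 DPA. Counted over the whole class, 133 of the 258 and 125 of the 139 were again at least 4-fold apart. The 2-fold to 4-fold differences at 6 DPA, which were not in the sets, were at least 4-fold in the same direction at 9 DPA for 33.1% of 4726 and 22.1% of 4605, beside 21.6% and 15.1% over all sequences. At 14 DPA they were so for 17.1% of 7083 and 8.24% of 7231, no more than the 17.6% and 10.5% over all sequences, and 8.95% of those on the starchy endosperm side were at least 4-fold apart in the opposite direction. The sets were chosen for high ratios in 1 pair of pools, and how much of the lower ratios at 9 and 14 DPA goes with that choice was not tested.

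**Figure D5:**
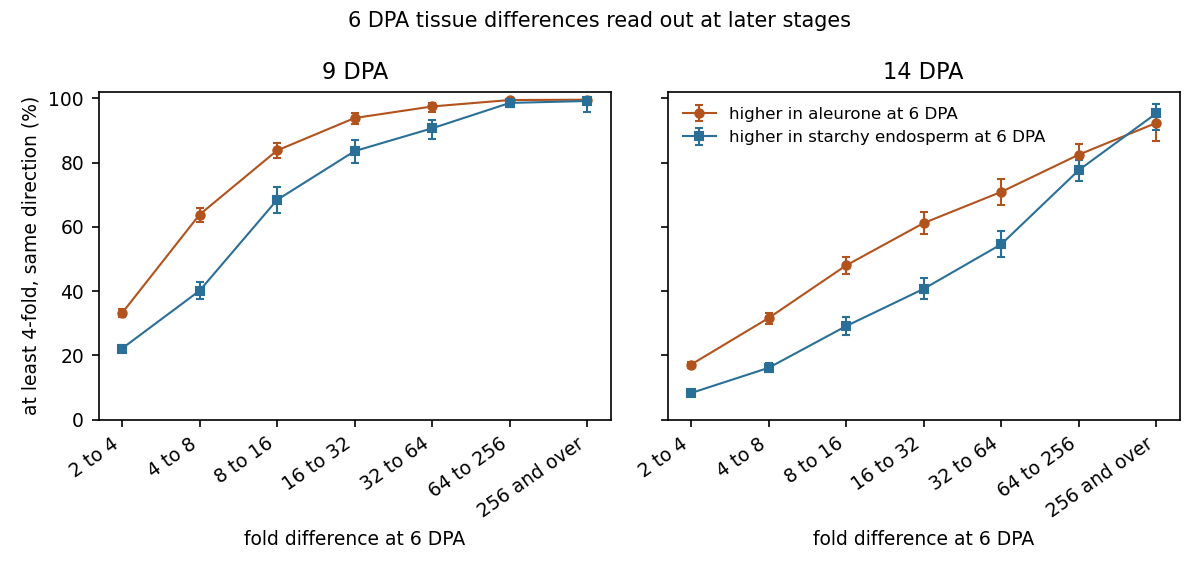
Percent of sequences at least 4-fold higher in the same tissue at 9 DPA (left) and 14 DPA (right), by the fold difference at 6 DPA (horizontal axis), for those higher in aleurone and those higher in starchy endosperm at 6 DPA; bars are exact 95% binomial intervals over sequences. The share rose with the 6 DPA difference in all 4 series, from 33.1% to 99.6% for aleurone at 9 DPA and from 8.24% to 95.4% for starchy endosperm at 14 DPA. Sequences under 20 reads in both libraries of a stage are left out. For aleurone at 14 DPA, 144 of the 258 sequences at 256-fold or more remained.

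Among members with at least 20 reads at both later stages, 1954 of 4364 (44.8%) of the aleurone set were at least 4-fold higher in aleurone at 9 and at 14 DPA, and 1464 (33.5%) at 9 DPA alone. Of the starchy endosperm set, 1237 of 3432 (36.0%) were so in starchy endosperm at both stages and 1058 (30.8%) at 9 DPA alone. Another 210 of the 4364 (4.81%) and 161 of the 3432 (4.69%) were under 4-fold at 9 DPA and at least 4-fold at 14 DPA. Abundant members kept the difference more often at 14 DPA: of those with at least 100 RPKM in their own tissue at 6 DPA, 64.5% of 572 in the aleurone set and 57.4% of 725 in the starchy endosperm set did, against 44.3% of 2653 and 28.7% of 2570 of those under 10 RPKM. At 9 DPA the aleurone set showed the same order, with 91.6% of 663 and 78.2% of 1439, but the starchy endosperm set did not, with 70.7% of 781 at 100 RPKM or more, 60.8% of 1909 at 10 to 100 RPKM and 78.7% of 877 under 10 RPKM. Of the members considered at 14 DPA, the abundant ones also had the larger ratios at 6 DPA, with median log2 ratios of 5.09 and -5.52 against 2.90 and -3.10.

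In reads, the shares of the aleurone library held by the aleurone set were 27.7%, 31.0% and 7.40% at 6, 9 and 14 DPA, and those of the starchy endosperm library were 1.54%, 1.91% and 1.84%. The starchy endosperm set held 2.48%, 3.36% and 14.7% of the aleurone reads and 30.3%, 32.9% and 49.3% of the starchy endosperm reads at the same stages. At 14 DPA the aleurone library thus gave more reads to the starchy endosperm set of 6 DPA than to the aleurone set of 6 DPA. The summed level of the starchy endosperm set was still lower there, at 139800 scaled RPM against 755600 in 14 DPA starchy endosperm. Carry-over of tissue at 14 DPA was not tested. The 10 largest contributors made up 14.3% of the starchy endosperm set's reads in 14 DPA aleurone, so the share was spread over many sequences. The share of reads held by a given set does not depend on the scaling, although its membership does.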

How the data were processed

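Per the labels' protocols, RNA of microdissected tissue went through MessageAmpII amplification with a primer whose restriction site served to take off the poly(A) tail, then 15 PCR cycles and a Genome Analyzer IIx run. Not given in the sources used here are the aligner, its settings, its rule for reads that match several sequences, and which sequence set was used. The deposited files give whole counts of total and of unique reads per sequence. The authors' deposited RPKM was recomputed from total counts and lengths to within 5e-04. A transformed score in the deposited 6 DPA files was not used.

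Scaling factors were TMM (edgeR 4.0.16, R 4.3.3) over the 75040 sequences that reached 10 reads in 3 or more of the 6 libraries. A sequence given 50 reads or more by the higher library (20 at a later stage) was called at a scaled ratio of at least 4, counts under 3 set at 3. Intervals of ratios are exact and conditional on the summed reads, and those of shares are Clopper-Pearson intervals, both at 95% (Python 3.11.15, scipy 1.17.1). The intervals of ratios cover counting error of reads only, and do not allow for the picking of a sequence by its ratio or level. Those of shares treat sequences as independent draws, although a gene may be represented by several. They cover neither counting error of reads nor the spread between pools. A floor of 3 reads was 0.0962 scaled RPM in 6 DPA aleurone and 0.0979 in 6 DPA starchy endosperm. With 1 library per group no test was made. The calling was tested on simulated data that held counting error of reads only. They had no PCR copies, no reads matching several sequences and no spread between pools, so the test does not bear on these.

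The named sequences are, per direction, that with the largest ratio and that with the largest difference in scaled RPM, among those at least 4-fold apart on total and unique reads whose higher library held 50 or more unique reads. The comparison, thresholds and lists were chosen with earlier results of these data known. Marker lists for both tissues were drawn up and matched 0 identifiers. Alternatives were other scalings (library totals, DESeq2 1.42.0 size factors), unique reads, other read minimums and floors, removal of the 100 most abundant sequences of each 6 DPA library, and equal depth.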

Additional observations from a re-analysis of the deposited data

Results flagged for a closer look

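Some sequences were at least 4-fold apart in opposite directions at 6 DPA and at a later stage, and were picked out because the tissue difference ran one way at 1 stage and the other way at the later one. With 1 library per tissue and stage this was not tested. At 9 DPA, 20 of the 5392 sequences of the aleurone set considered favoured starchy endosperm by 4-fold or more, and 44 of the 3567 of the starchy endosperm set favoured aleurone to that degree. At 14 DPA the numbers were 274 of 6367 (4.30%) and 623 of 5880 (10.6%). Over all sequences with that many reads, 15.1% favoured starchy endosperm and 21.6% aleurone by 4-fold or more at 9 DPA, and 10.5% and 17.6% at 14 DPA, so each of these counts was a smaller share than that over all sequences. On unique reads, a choice made after seeing the data, the 9 DPA numbers were 10 and 16 and the 14 DPA numbers 217 and 449. At equal depth, chosen likewise, they were 4 and 29 at 9 DPA and 253 and 565 at 14 DPA. With library totals they were 30 and 34 at 9 DPA and 205 and 804 at 14 DPA.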

How the results depend on the processing

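The 6 DPA counts of 8517 (aleurone higher) and 6797 (starchy endosperm higher) stayed within 1.5 times under library totals (9567 and 5950), size factors, unique reads, removal of the most abundant sequences and equal depth. A floor of 1 read could not change a 4-fold call at a minimum of 50 reads, and left the counts as they were. The counts were 13424 and 11201 with a minimum of 10 reads, and 4492 and 3850 with 200 reads, since a minimum sets how many sequences are considered. Without a filter they were the same as with 10 reads, because the floor of 3 reads and the 4-fold rule already require more than 10 reads. For 9 DPA, the share of the aleurone set and then of the starchy endosperm set that was again 4-fold apart was 78.7% and 71.1% with library totals, 84.4% and 72.5% on unique reads, 82.6% and 63.9% with 200 reads and 83.4% and 61.7% at equal depth. For 14 DPA the shares were 55.9% and 30.9% with library totals, 46.7% and 36.7% on unique reads, 50.01% and 38.2% with 200 reads and 48.0% and 35.4% at equal depth. The cause of these moves was not tested. In each of these settings the aleurone set kept the larger share. Calls in favour of aleurone were also the more common over all sequences in the main setting, 21.6% against 15.1% at 9 DPA and 17.6% against 10.5% at 14 DPA. The shallow 9 DPA libraries left 3125 members of the aleurone set and 3230 of the starchy endosperm set under 20 reads. No paired analysis was possible because the 6 DPA comparison rests on 1 library per tissue; a model over all 3 stages would pair tissues by stage but answers another question.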
